A study of Mus musculus with 18 samples.

Results

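The loss of mRNA from wild-type (WT) macrophages after transcription was stopped was followed by comparing the 3 arrays taken at 90 min with the 3 taken at 0 min. These are 6 of the 18 arrays of the series. They were chosen by their labels alone, and every gene with enough signal was measured in them. The cells were bone marrow-derived macrophages of C57Bl/6 mice, grown from marrow with the growth factor M-CSF. All groups, WT and TTP-/- alike, had received lipopolysaccharide (LPS, a bacterial cell wall component that activates macrophages) for 3 h. Fresh medium then brought actinomycin D to stop RNA synthesis, together with the p38 inhibitor SB203580. The WT groups at 90, 45 and 0 min, and the TTP-/- (KO) groups at the same times, held 3 arrays each. Time without transcription and time under the p38 inhibitor were the same variable and cannot be told apart. Whether replicates were separate mice or cultures is not in the labels. The p-values therefore rest on the scatter among these arrays alone, which may be technical.

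An mRNA whose gene is no longer transcribed declines at the rate at which it is degraded. Most mRNAs lose their poly(A) tail first and are then decapped or digested from the 3′ end. Many mRNAs of inflammation carry AU-rich elements in their 3′ untranslated regions. Tristetraprolin (TTP, encoded by Zfp36) binds these elements and recruits the deadenylase complex, and p38 signalling restrains it. Replication-dependent histone mRNAs end in a stem-loop instead of a poly(A) tail and have a decay pathway of their own.

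Signal was read as the log2 of the deposited intensity, and a change is the WT 90 min mean minus the WT 0 min mean on that scale, with its SE from limma. A change of -1 leaves 50% of the signal. The authors' normalization (RMA) scales the arrays to each other, so each change is relative to the other mRNAs and a general loss of RNA is not visible. In RNA from a whole culture, fewer cells of a type and less RNA per cell cannot be told apart. Of 19454 genes, 10258 reached the signal limit, a log2 intensity of 3.03, in at least 1 group.

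Most genes did not pass the test over 90 min, and a small set lost signal. The median change of all 10258 genes was -0.02. In limma with Benjamini-Hochberg adjustment, 125 genes (1.22%) fell and 1 gene (0.00975%) rose. Over all tested genes, 144 (1.4%) had a change of -1 or lower. The changes of the 125 genes lay between -4.24 and -0.59 with a median of -1.34, which leaves 39.5% of the signal. In all 125 every 90 min array lay below every 0 min array, an order seen for 743 (7.24%) of the tested genes, while 296 (2.89%) had the opposite order. At 90 min, 52 of the 125 stood within 1 log2 unit of the signal limit or below it, where background understates the loss. Of the 125, 58 stood on at least 1 of the functional lists and 67 on none. The share of all tested genes on a list was not counted, and the lists were chosen with earlier results of these data known. These counts are therefore a description only.

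The count moved with single arrays. Omitting WT 90 min replicate 1 left 68 falls, omitting WT 0 min replicate 2 left 80, and omitting WT 90 min replicate 2 left 82. WT 0 min replicate 3 stood apart from its group, with correlations of 0.941 and 0.948 to the other replicates, which correlated at 0.988 with each other. Without that array 133 genes fell and 163 rose. Replicate 3 of every group carries lower sample numbers in the titles than replicates 1 and 2, and the first principal component (29.0% of the variance) separated these numbers. With the number series as a block 291 genes fell, and 125 of the 125 were among them. Within replicates 1 and 2 alone, 613 fell and 765 rose. Of those 765 genes, 32 were also higher at 90 min in replicate 3.

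**Figure D1:**
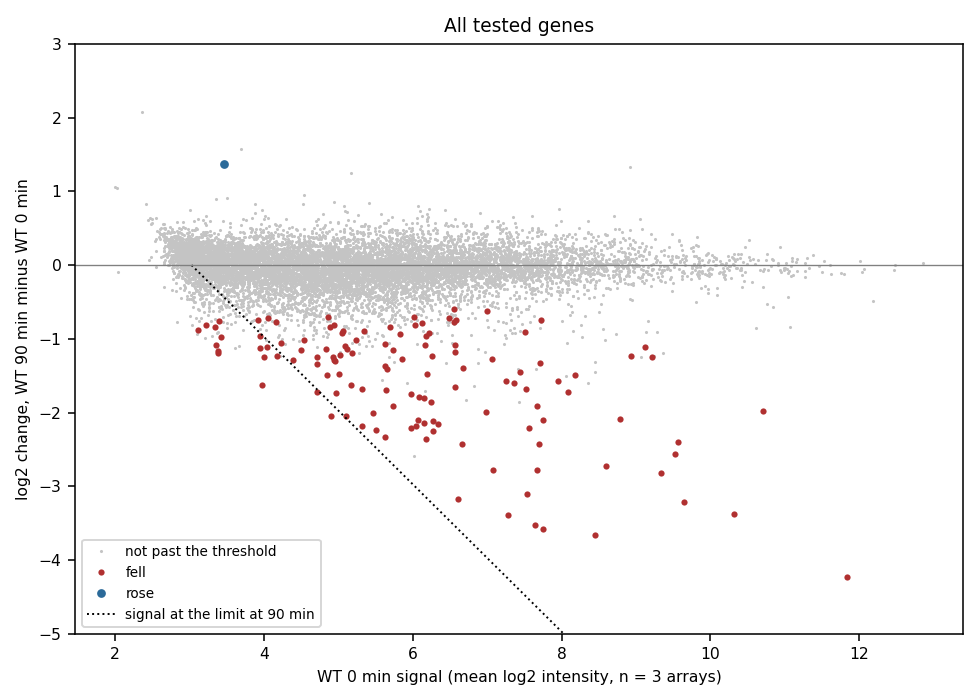
Change over 90 min (y, log2 units) against the mean WT 0 min signal (x, log2 intensity) for the 10258 tested genes. Red points are the 125 genes that fell, the blue point is the 1 that rose (Rbis), and along the dotted line the signal at 90 min equals the limit of 3.03.

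The functional classes separated into a few with large losses and many near 0. Among 41 classes with 14 or more tested genes, 22 held at least 1 gene that fell and 19 held none. As 1.22% of all tested genes fell, a class of few genes would often hold none. The 19 had median changes between -0.19 and 0.10. The lowest median belonged to the replication-dependent histone genes, at -1.36, followed by the reported TTP targets at -1.24. NF-kB feedback inhibitors had a median of -0.65, immediate early genes -0.60, and cytokines and growth factors -0.51. These lists overlap: Tnf, for example, is both a cytokine and a TTP target.

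**Figure D2:**
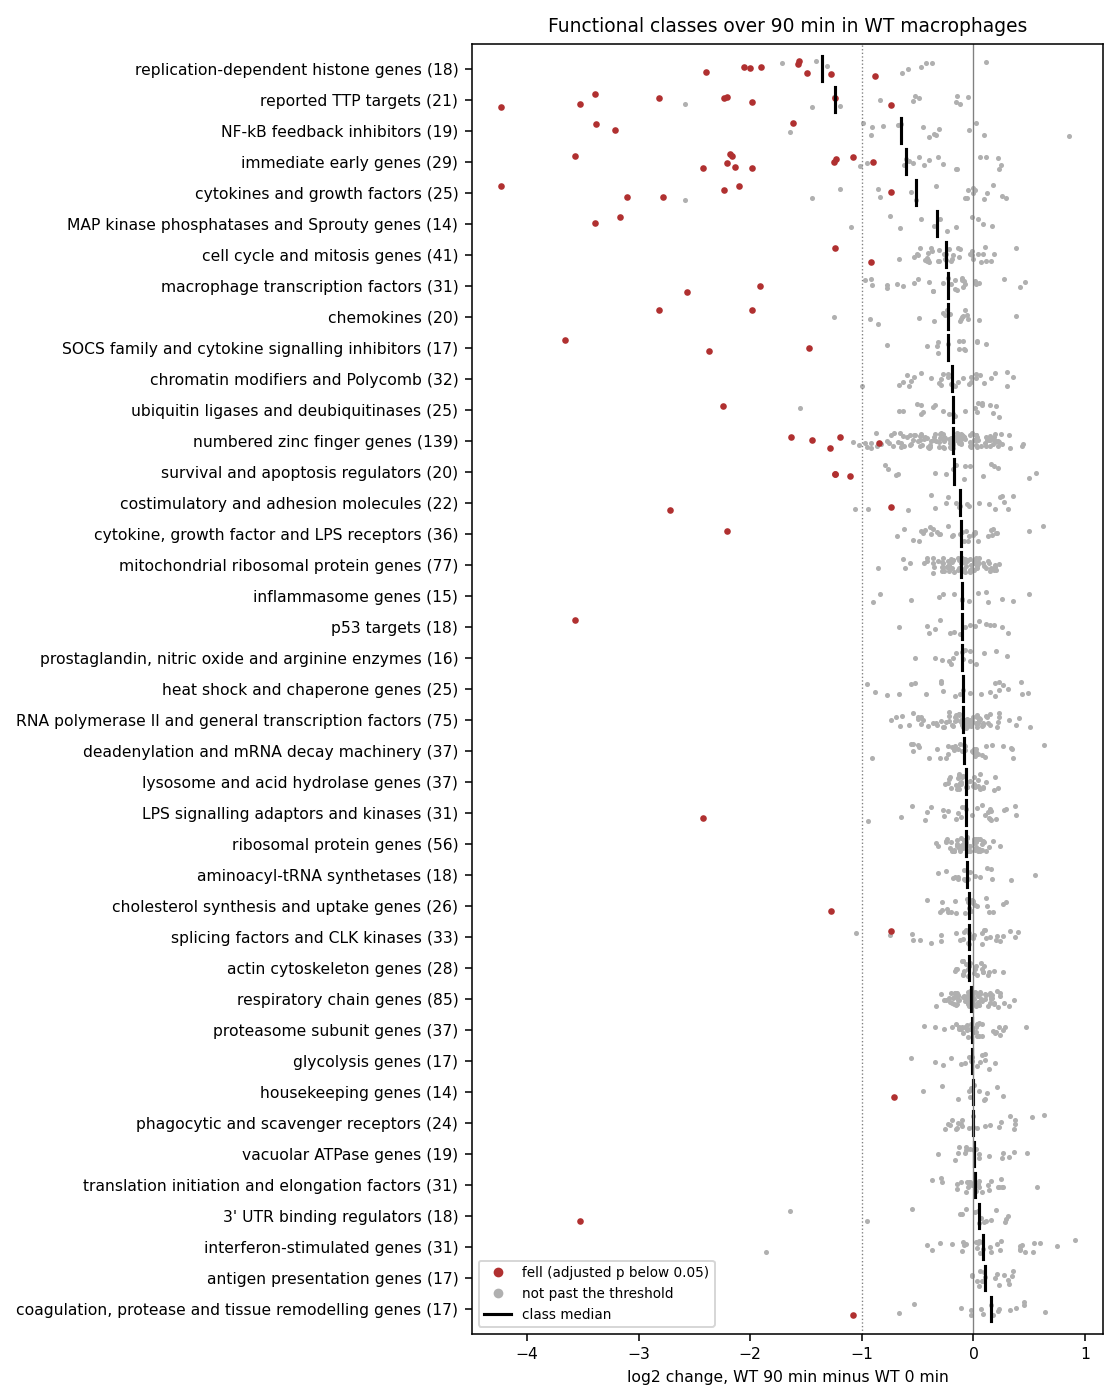
Change over 90 min in WT (x, log2 units) for each tested member of the 41 classes with 14 or more tested genes (number in brackets), ordered by class median (black bar). Red points fell past the threshold; histone genes and TTP targets have the lowest medians, -1.36 and -1.24, and ribosomal protein genes lie around -0.07.

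Replication-dependent histone genes encode the bulk histones that package new DNA in S phase. Of 26 on the array 18 reached the signal limit, 9 of them fell and none rose, against 1.22% of all tested genes. In 15 of the 18 every 90 min array lay below every 0 min array, against 7.24% of all tested genes. A negative change was seen in 17 of 18, as in 52.7% of all tested genes. The class median was -0.99, -1.47 and -1.47 in replicates 1, 2 and 3, and it was already -0.87 at 45 min. It stayed between -1.59 and -0.99 under all alternatives run. Histone genes share near-identical coding sequences, so signal may pass between members and the single values are less certain than the class.

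Linker histone H1f5 showed the largest loss of the class. Its log2 signal was 7.08, 7.27 and 7.16 at 90 min, against 9.50, 9.51 and 9.70 at 0 min. The groups were far apart, and each had a narrow spread. It fell by 2.40 ± 0.33 (SE, n = 3 arrays per group, limma adjusted p = 0.000514), which left 19.0%. A second linker histone, H1f1, had 5.72, 5.44 and 6.14 at 90 min, against 7.40, 7.60 and 8.01 at 0 min, and fell by 1.91 ± 0.26 (adjusted p = 0.000501). The 90 min arrays were again all below the 0 min arrays.

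Core histone genes of the H2A, H2B and H4 families fell as well. H2bc18 had 3.30, 3.29 and 3.79 at 90 min, against 5.23, 5.30 and 5.86 at 0 min, leaving 24.9% of its signal (SE of the log2 change 0.22, adjusted p = 9.31e-05). H2ac4 changed by -2.05 ± 0.34 and ended below the signal limit. H4c14 and H2bc14 both changed by -1.57, without overlap of the groups. The other members that fell, named after their values were seen, were H2ac15 (-1.49), H2bc9 (-1.27) and H4c8 (-0.89). H2bc3 (-1.71, adjusted p = 0.093), H4c6 (-1.41, adjusted p = 0.0797) and H4c4 (-1.31, adjusted p = 0.0722) did not pass although their groups did not overlap. In H2bc3 the 0 min arrays were wide apart, at 5.28, 5.61 and 7.62. H2bc4 was at 5.19, 5.78 and 5.42 at 90 min, against 5.03, 5.41 and 5.62 at 0 min, with overlapping groups and a change of 0.11 ± 0.25. With the number series as a block 12 of the 18 passed, beside 291 falls and 10 rises among all 10258 tested genes.

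**Figure D3:**
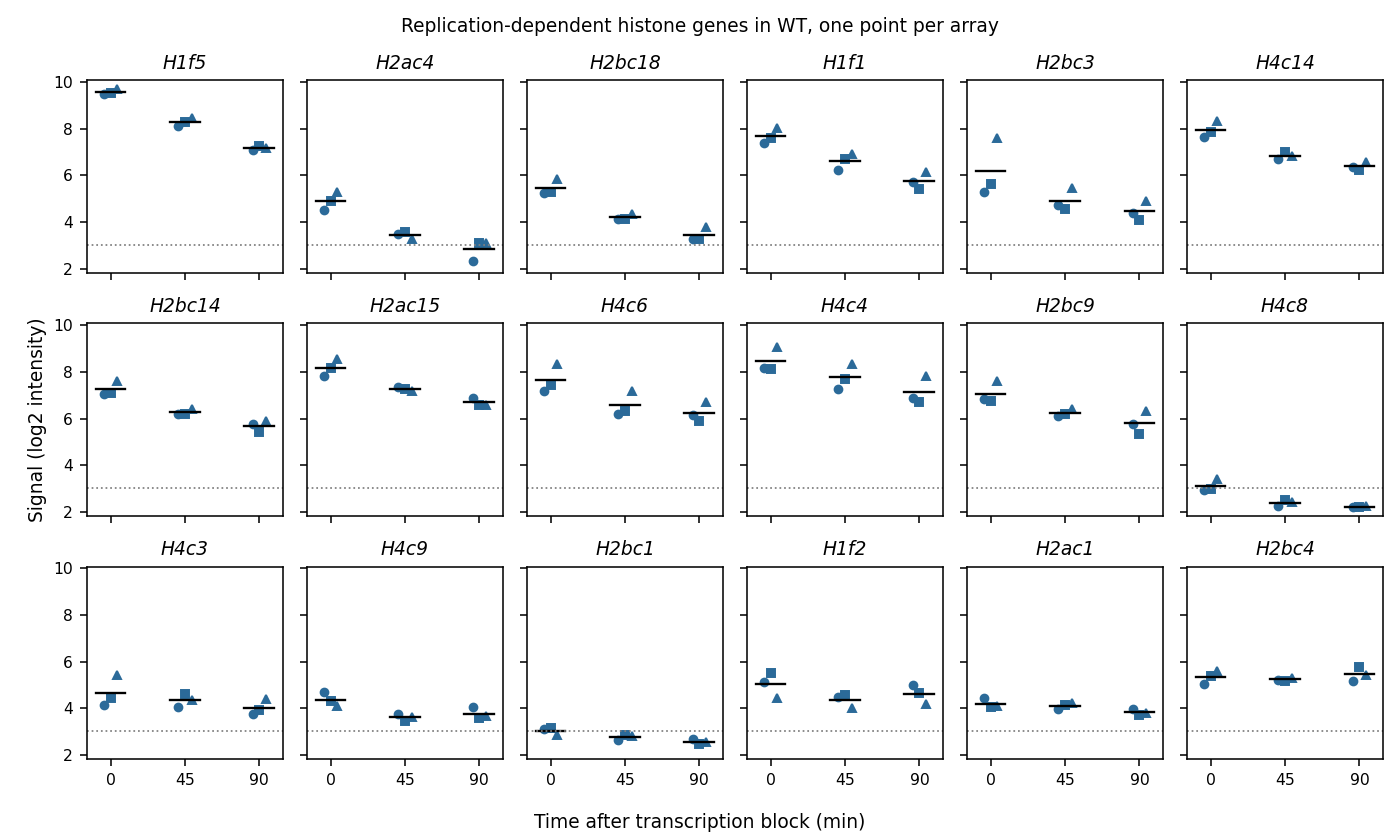
Signal (y, log2 intensity) of the 18 tested replication-dependent histone genes at 0, 45 and 90 min in WT, ordered by their change. Each point is 1 array (circles replicate 1, squares replicate 2, triangles replicate 3), bars are means and the dotted line is the signal limit of 3.03. H1f5 drops at both steps, while H2bc4 stays level.

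The promoters of both linker histone genes are shown because the class shares promoter elements. They are taken from RefSeq (GRCm38.p6) and run from 250 bases before to 50 after the annotated start, 5′ to 3′ on the gene's strand. H1f5 lies at chr13:21780576-21780875 (minus strand) and H1f1 at chr13:23763418-23763717 (plus strand). Capitals mark CCAAT on either strand and TATAAA on the given strand.
H1f5: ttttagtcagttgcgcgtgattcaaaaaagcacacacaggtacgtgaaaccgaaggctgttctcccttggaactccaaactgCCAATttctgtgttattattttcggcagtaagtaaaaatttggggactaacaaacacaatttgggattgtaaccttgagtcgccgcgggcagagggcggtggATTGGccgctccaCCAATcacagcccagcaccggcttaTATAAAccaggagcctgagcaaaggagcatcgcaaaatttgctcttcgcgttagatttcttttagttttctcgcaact
H1f1: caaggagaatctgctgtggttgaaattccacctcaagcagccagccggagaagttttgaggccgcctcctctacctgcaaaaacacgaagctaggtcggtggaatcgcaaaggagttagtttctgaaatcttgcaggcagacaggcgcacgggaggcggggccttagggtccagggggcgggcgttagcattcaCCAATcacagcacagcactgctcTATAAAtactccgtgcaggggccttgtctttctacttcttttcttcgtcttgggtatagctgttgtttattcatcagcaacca
Both windows hold a TATAAA and at least 1 CCAAT close upstream of the start. Among the 16 tested histone genes with a promoter in the table, 10 (62.5%) held TATAAA and 13 (81.2%) held CCAAT. The shares over the 8360 tested genes with a promoter were 5.43% and 42.0%. No histone promoter held the kB motif described next. A match describes the letters in the window and not a bound factor.

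The list of NF-kB feedback inhibitors holds genes that NF-kB itself induces, and many but not all of their products restrain it. Of 19 tested, 3 (15.8%) fell, against 1.22% of all tested genes, and 16 changes were negative, as were 52.7% of all. With the number series as a block 7 passed, beside 291 falls and 10 rises among all 10258 tested genes. Nfkbia, which encodes the inhibitor IκBα, had 6.58, 6.73 and 7.49 at 90 min, against 9.87, 10.07 and 11.01 at 0 min. Replicate 3 was highest in both groups, and the groups did not overlap. It fell by 3.38 ± 0.49 (adjusted p = 0.000884). The ubiquitin-editing enzyme gene Tnfaip3 had 6.41, 6.32 and 6.55 at 90 min, against 9.37, 9.48 and 10.07 at 0 min, and fell by 3.21 ± 0.39 (adjusted p = 0.00021). Nfkbid, a nuclear IκB protein, fell by 1.62 ± 0.21 (adjusted p = 0.000354). The nuclear IκB protein gene Nfkbiz changed by -0.91 (adjusted p = 0.0719), Bcl3 by -0.99 (adjusted p = 0.234) and Nfkbie by -0.35 (adjusted p = 0.708), and none of these passed. The 4 tested NF-kB subunits had a median of -0.41 and none passed; Rel changed by -0.87 (adjusted p = 0.25).

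The promoters of Nfkbia and of the chemokine gene Cxcl2 are shown because both genes fell and both hold a match to the NF-kB motif (kB site: GGG, any 2 bases, then TTTCC). Nfkbia lies at chr12:55492598-55492897 (minus strand) and Cxcl2 at chr5:90903649-90903948 (plus strand). Capitals mark the motif on either strand.
Nfkbia: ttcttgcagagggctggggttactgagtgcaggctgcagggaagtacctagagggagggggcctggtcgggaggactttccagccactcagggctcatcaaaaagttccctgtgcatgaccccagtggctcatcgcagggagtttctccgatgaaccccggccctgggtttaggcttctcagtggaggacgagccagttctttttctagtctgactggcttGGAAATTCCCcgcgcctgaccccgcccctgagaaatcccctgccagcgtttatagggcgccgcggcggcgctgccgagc
Cxcl2: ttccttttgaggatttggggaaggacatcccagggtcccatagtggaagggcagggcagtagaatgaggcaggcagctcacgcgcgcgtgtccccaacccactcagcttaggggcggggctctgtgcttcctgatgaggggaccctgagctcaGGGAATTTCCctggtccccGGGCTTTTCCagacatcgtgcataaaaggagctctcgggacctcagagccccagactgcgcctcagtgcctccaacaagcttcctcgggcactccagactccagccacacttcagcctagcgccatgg
Nfkbia holds 1 match and Cxcl2 holds 2. The motif was found in 7 of the 98 genes that fell with a promoter in the table (7.14%), and in 169 of all 8360 (2.02%). The 7 were Cxcl1, Cxcl2, Mcl1, Nfkbia, Rasgef1b, Rsl1 and Tnfaip3. The cAMP response element TGACGTCA was found in 10.2% of the genes that fell against 3.58% of all, and the AP-1 motif TGANTCA in 6.12% against 6.16%. These shares have no test.

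Cytokines and growth factors gave 6 falls in 25 tested genes (24%), against 1.22% of all tested genes. Tnf, the gene of the cytokine TNF, had 7.72, 7.61 and 7.47 at 90 min, against 11.77, 11.90 and 11.84 at 0 min. The arrays within each group lay close together, far from the other group. Tnf fell by 4.24 ± 0.18 (adjusted p = 2.17e-10), to 5.31% of its signal. Edn1, which encodes the vasoconstrictor peptide endothelin, had 4.68, 5.06 and 4.91 at 90 min, against 7.40, 7.42 and 8.18 at 0 min, and fell by 2.78 ± 0.26. Tnfsf9, the ligand of a costimulatory receptor of T cells, fell by 3.10 ± 0.31, and the colony-stimulating factor gene Csf2 fell by 2.24 ± 0.32. Il23a fell by 0.74 ± 0.16, ending near the limit, and missed the threshold in 4 of 18 omissions of a single array (adjusted p of 0.0516 to 0.186). Pdgfb, a growth factor of mesenchymal cells, changed by -2.10 ± 0.49 and missed it in 9 of 18 (0.0529 to 0.245).

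Several prominent cytokine mRNAs did not pass without a block. With the number series as a block 11 of the 25 cytokine genes passed, as did 15 of the 21 reported TTP targets (9 without it). Over all 10258 tested genes that block gave 291 falls and 10 rises. Il10, an anti-inflammatory cytokine, had 3.01, 3.12 and 4.15 at 90 min, against 5.11, 5.29 and 7.65 at 0 min, a change of -2.59 ± 0.66 (adjusted p = 0.0716). Replicate 3 stood highest in both groups. Il6 changed by -1.45 ± 0.54 (adjusted p = 0.306), with 5.64 in replicate 3 against 7.38 and 7.97 in the other 90 min arrays. Il1b, an interleukin-1 gene and the member of the inflammasome list with the strongest signal at 0 min, had 10.07, 10.27 and 10.37 at 90 min, against 10.72, 10.88 and 11.61 at 0 min, a change of -0.83 ± 0.32 (adjusted p = 0.338). It passed with the number series as a block (adjusted p = 0.00331).

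Among 20 chemokines, 2 fell (10%, against 1.22% of all tested genes), the neutrophil attractants Cxcl1 (-2.82 ± 0.35) and Cxcl2 (-1.98 ± 0.23). With the series block 5 chemokines passed, beside 291 falls and 10 rises among all 10258 tested genes. Cxcl2 had 8.79, 9.31 and 8.08 at 90 min, against 10.76, 10.59 and 10.77 at 0 min. The spread at 90 min was wider than at 0 min, but the groups did not overlap. The macrophage chemokine Ccl3 had 11.74, 11.81 and 11.55 at 90 min, against 12.14, 12.07 and 12.36 at 0 min, a change of -0.49 ± 0.13 that did not pass (adjusted p = 0.089). With the number series as a block Ccl3 passed (adjusted p = 0.0448). Ccl4 changed by -0.85 ± 0.26 (adjusted p = 0.155) and Cxcl10, an interferon-induced chemokine, by -0.10 ± 0.20 (adjusted p = 0.97). The class median was -0.22.

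**Figure D4:**
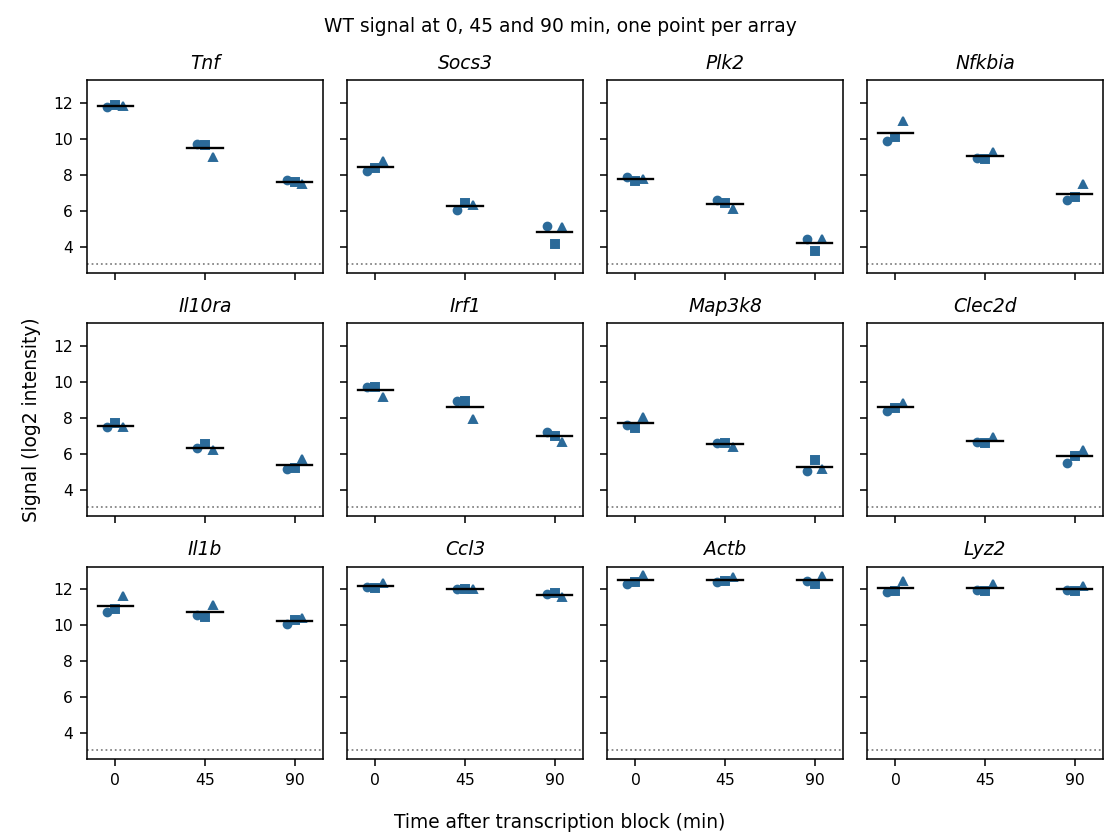
Signal (y, log2 intensity) of 12 genes at 0, 45 and 90 min in WT, 1 point per array (circles replicate 1, squares replicate 2, triangles replicate 3) with means as bars and the signal limit of 3.03 dotted. Tnf changes by -4.24, Socs3 by -3.66 and Plk2 by -3.57, Il1b by -0.83 and Ccl3 by -0.49, and Actb and Lyz2 stay level.

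Immediate early genes, which cells induce without new protein synthesis, gave 11 falls in 29 tested (37.9%), against 1.22% of all tested genes. The kinase gene Plk2 had 4.41, 3.75 and 4.40 at 90 min, against 7.85, 7.64 and 7.78 at 0 min. It fell by 3.57 ± 0.43 (adjusted p = 0.00021), and the groups were far apart. Junb, an AP-1 subunit, fell by 2.43 ± 0.38 and the survival factor gene Ier3 fell by 2.21 ± 0.38, a call lost with an offset of 16 before the log (adjusted p = 0.063). Ier5 fell by 2.14 ± 0.35. Rgs1, a brake on G protein signalling, changed by -2.18 ± 0.50 but missed the threshold in 9 of 18 omissions (adjusted p of 0.0501 to 0.135), and Csrnp1 (-2.16) in 3 of 18 (0.0645 to 0.0881). The other 5, named after their values were seen, were Tiparp (-1.99), Egr2 (-1.25), Ier2 (-1.23), Myc (-1.08) and Maff (-0.90). The AP-1 genes Fos (-0.55, adjusted p = 0.562) and Jun (-0.60, adjusted p = 0.394) had overlapping groups. So had Atf3, which changed by -1.01 ± 0.60 (adjusted p = 0.704). Its change was -0.76, -1.06 and -1.22 in replicates 1, 2 and 3, and it passed with the number series as a block (adjusted p = 0.00265).

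Feedback inhibitors of other pathways included 5 genes that fell. The share was 14.3% in the MAP kinase class and 17.6% in the cytokine signalling class, against 1.22% of all tested genes. Of 14 phosphatases and Sprouty genes that restrain MAP kinases, Dusp1 fell by 3.39 ± 0.67 and Dusp2 fell by 3.17 ± 0.29 (class median -0.32). Dusp2 had 3.34, 3.18 and 3.81 at 90 min, against 7.05, 6.97 and 5.80 at 0 min, so that it ended close to the limit. Dusp1 missed the threshold without WT 90 min replicate 1 or 2 (adjusted p of 0.0695 to 0.0806). Among 17 SOCS genes and other inhibitors of cytokine signalling, Socs3, Cish and Socs1 fell (class median -0.22). Socs3, which blocks receptors of the IL-6 type, had 5.13, 4.17 and 5.07 at 90 min, against 8.22, 8.35 and 8.77 at 0 min. It fell by 3.66 ± 0.49 (adjusted p = 0.000455), with no overlap. Cish fell by 2.36 ± 0.46 and Socs1 fell by 1.47 ± 0.31, and they missed the threshold in 3 and 4 of 18 omissions (adjusted p up to 0.0758 and 0.132).

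Zfp36 itself was among the fastest losers. It had 4.11, 4.10 and 4.15 at 90 min, against 7.95, 7.86 and 7.12 at 0 min. The 90 min arrays lay close together, and the change was -3.52 ± 0.32 (adjusted p = 1.15e-05). It was the 1 gene of 18 regulators that bind 3′ untranslated regions to fall (5.56%, against 1.22% of all tested genes). None of 37 genes of deadenylation and mRNA decay passed, which is near the 1.22% of all tested genes that fell. Pabpc1, the main poly(A)-binding protein, had 10.98, 10.83 and 10.78 at 90 min, against 10.47, 10.61 and 10.49 at 0 min (change 0.34 ± 0.17, adjusted p = 0.566). Btg1, which promotes deadenylation, had the largest change of that list. It had 8.02, 7.85 and 8.79 at 90 min, against 8.91, 8.91 and 9.57 at 0 min, without overlap, a change of -0.91 ± 0.28 (adjusted p = 0.169). It passed with the number series as a block (adjusted p = 0.0013), where 2 of the 37 passed. Over all 10258 tested genes that block gave 291 falls and 10 rises.

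Transcription factors of the macrophage gave 2 falls in 31 (6.45%), against 1.22% of all tested genes. Irf1, an activator of interferon-responsive genes, had 7.22, 7.01 and 6.66 at 90 min, against 9.70, 9.73 and 9.15 at 0 min. Replicate 3 was lowest in both groups. Irf1 changed by -2.56 ± 0.57 (adjusted p = 0.0304), and it missed the threshold without WT 0 min replicate 1 or 2 or without any WT 90 min replicate (0.0831 to 0.116). Cebpd, a factor induced by LPS, fell by 1.92 ± 0.24. The class median was -0.23.

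The classes of signalling and surface molecules held 1 or 2 falls each. Of the receptors 2.78% fell, of the LPS signalling genes 3.23% and of the costimulatory and adhesion molecules 9.09%, against 1.22% of all tested genes. Differences between these shares were not tested. Il10ra, the ligand-binding chain of the IL-10 receptor, was the 1 of 36 receptors to fall. It had 5.18, 5.18 and 5.69 at 90 min, against 7.49, 7.70 and 7.48 at 0 min, a change of -2.21 ± 0.23 (adjusted p = 3.64e-05) with well separated groups. Map3k8, the kinase that links LPS to ERK, was the 1 of 31 LPS signalling genes, with 5.05, 5.63 and 5.14 at 90 min, against 7.59, 7.43 and 8.06 at 0 min. It fell by 2.42 ± 0.29 (adjusted p = 0.00021). The lectin Clec2d, a ligand of an NK cell receptor, fell by 2.72 ± 0.28, and the adhesion molecule Pvr fell by 0.74 ± 0.15. Pvr missed the threshold when WT 90 min replicate 1, or instead WT 0 min replicate 2, was omitted (adjusted p of 0.0731 to 0.0817). The adhesion molecule Icam1 had overlapping groups and changed by -0.38 ± 0.19 (adjusted p = 0.546).

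Of 20 survival and apoptosis regulators, Pim1, Gadd45b and Mcl1 fell (15%, against 1.22% of all tested genes). The kinase gene Pim1 had 8.01, 7.69 and 8.21 at 90 min, against 9.15, 9.29 and 9.19 at 0 min, and fell by 1.24 ± 0.18 (adjusted p = 0.000848). Gadd45b, a stress-response gene, also fell by 1.24 ± 0.18, a call lost with arrays centred on housekeeping genes (adjusted p = 0.158). Mcl1, a short-lived antiapoptotic protein, fell by 1.11 ± 0.22 but missed the threshold on omission of 1 of 2 arrays, WT 90 min replicate 1 and WT 0 min replicate 2 (0.052 to 0.0826). Among 17 genes of coagulation and tissue remodelling 1 fell (5.88%, against 1.22% of all tested genes). This was the plasminogen activator gene Plau, by 1.08 ± 0.15. It had 5.05, 5.14 and 5.09 at 90 min, against 6.16, 6.17 and 6.19 at 0 min, with hardly any spread within a group. Its call too was lost with that centring (adjusted p = 0.14).

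Numbered zinc finger genes, most of which encode DNA-binding repressors, gave 5 falls in 139 tested, or 3.60%, against 1.22% of all genes. With only the 6 WT arrays at 0 and 90 min in the fit, 1 of the 139 fell (0.719%), beside 64 of all 10258, so the larger share was not seen there. Of the 139, 30 had separated lower groups (7.24% of all tested genes) and 104 had a negative change (52.7% of all tested genes). At 90 min, 32 of the 139 averaged below the signal limit, as did 525 of all 10258. A gene near the limit can enter the test through a high 0 min group alone, which favours a lower value at 90 min. These counts are therefore a description only. The class median was -0.19. Zfp87 (-1.63), Zfp263 (-1.45), Zfp217 (-1.28), Zfp626 (-1.19) and Zfp869 (-0.85) fell. At 90 min Zfp87 averaged 2.35 and Zfp626 averaged 2.19, both below the signal limit. Zfp87, Zfp217, Zfp626 and Zfp869 lost their call in that smaller fit. Zfp217 missed the threshold in 3 of 18 omissions (adjusted p up to 0.128), and Zfp263 (0.0657) and Zfp869 (0.058) without WT 90 min replicate 1. The signal of this class at 0 min had a median of 3.85, near the limit. Of 41 cell cycle and mitosis genes, Ccnf and Aurka fell (4.88%, against 1.22% of all genes), with a class median of -0.25. The cyclin gene Ccnf changed by -1.24 ± 0.26 and ended below the limit, and it missed the threshold in 3 of 18 omissions (adjusted p up to 0.135). The mitotic kinase gene Aurka changed by -0.92 ± 0.22 and missed it in 12 of 18 (up to 0.195). Pcna, the DNA replication clamp, changed by -0.02 ± 0.20.

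Elsewhere, 1 gene fell in each of several classes, beside a share of 1.22% over all tested genes. Trim13, a ubiquitin ligase, had 3.79, 4.81 and 3.49 at 90 min, against 6.42, 6.20 and 6.21 at 0 min, and changed by -2.25 ± 0.50. It missed the threshold in 4 of 18 omissions (adjusted p up to 0.158). The LDL receptor ligase gene Mylip changed by -1.28 ± 0.30 and missed it in 10 of 18 (up to 0.236). Clk3, a kinase of splicing factors, fell by 0.74 ± 0.14, but missed the threshold with only the 6 WT arrays or with either centring (adjusted p of 0.19 to 0.263). Tbp, the TATA-binding protein gene often used as a reference in qPCR, changed by -0.71 ± 0.17 and missed the threshold in 14 of 18 (up to 0.235). The cause of these losses of a call was not tested.

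No gene passed in the large classes that keep the cell running. Over all tested genes 1.22% fell, so an absence of calls is near that share and does not set these classes apart. None of 56 ribosomal protein genes passed, and their changes lay between -0.34 and 0.24 with a median of -0.07. None of 85 respiratory chain genes (median -0.02), 37 proteasome subunits (-0.01), 37 lysosomal genes (-0.07), 17 glycolysis genes (-0.01) or 31 translation factors (0.01) passed either. Actb had 12.45, 12.30 and 12.70 at 90 min, against 12.31, 12.38 and 12.76 at 0 min, a change of 0.00 ± 0.17. Among 12 macrophage markers, changes ran from -0.23 (Cd14) to 0.25 (Itgam) and none passed. The lysozyme gene Lyz2 had 11.95, 11.92 and 12.16 at 90 min, against 11.86, 11.88 and 12.46 at 0 min. No marker of T and NK cells, B cells or erythroid and mast cells reached the signal limit, and 1 of 9 neutrophil markers, 2 of 7 dendritic cell markers and 6 of 9 fibroblast markers did. None of these passed. The 6 fibroblast markers had a median signal of 3.44 at 0 min, near the limit of 3.03. Their median change was 0.19. In 3 of them, against 2.89% of all tested genes, every 90 min array lay above every 0 min array. The largest change was that of Col1a2, a collagen gene, with 4.12, 3.78 and 4.03 at 90 min, against 3.62, 3.42 and 3.55 at 0 min (change 0.45 ± 0.14, adjusted p = 0.204).

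Interferon-stimulated genes had a median of 0.09 over 31 tested genes and none past the threshold without a block, near the 1.22% of all tested genes that fell. The replicates disagreed in sign, with class medians of 0.35, 0.23 and -0.35 in replicates 1, 2 and 3, and the median ran from -0.06 to 0.45 over the alternatives. Mx2, which RefSeq lists as a transcribed pseudogene, changed by -1.86 ± 0.52 (adjusted p = 0.115) without overlap. With the number series as a block Mx2 passed (adjusted p = 0.000109), as the 1 of the 31. Over all 10258 tested genes that block gave 291 falls and 10 rises. Rsad2, the member with the strongest signal at 0 min, had 11.24, 11.23 and 9.66 at 90 min, against 10.68, 10.78 and 10.45 at 0 min, so that replicate 3 opposed the other pair. Antigen presentation genes had a median of 0.10, with none past the threshold and 2 of 17 changes negative, against 52.7% of all tested genes.

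A single gene rose. Rbis, a ribosome biogenesis factor, had 5.09, 5.05 and 4.37 at 90 min, against 3.48, 3.46 and 3.48 at 0 min, an increase of 1.36 ± 0.18 (adjusted p = 0.000455). Its 3 arrays at 45 min averaged 4.35, between the other times. In KO cells it had 4.14, 4.07 and 4.13 at 90 min, against 4.07 in each array at 0 min. The KO arrays at 0 min thus already lay above the WT arrays at 0 min. The KO change of Rbis minus its WT change was -1.32 ± 0.26 and did not pass (limma adjusted p = 0.218). A rise specific to WT is therefore not shown. The nuclear noncoding RNA Malat1 had 10.22, 10.64 and 9.90 at 90 min, against 8.10, 8.46 and 10.20 at 0 min. Replicate 3 stood apart at 0 min, and the change of 1.33 ± 0.38 did not pass (adjusted p = 0.119).

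The middle time gave the share of each loss that had occurred by 45 min. All 125 genes were lower at 45 min than at 0 min and lower at 90 min than at 45 min. Their median change at 45 min was -0.71, and a median of 54.5% of the log2 loss had occurred by then. In 11 genes 80% or more of the loss was complete at 45 min, and in 23 genes 40% or less. These shares use the values that made the call, and differences between genes in them were not tested.

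Early losers included Csf2 (94.7% of the loss by 45 min), Dusp2 (93.6%), Gadd45b (90.5%), Plau (88.7%) and Zfp36 (82.0%). Csf2 had 5.76, 6.01 and 4.74 at 0 min, 3.38, 3.35 and 3.42 at 45 min, and 3.23, 3.29 and 3.27 at 90 min. Its signal was near the limit by 45 min, as was that of Dusp2, so a later loss would be hard to see there. Plau and Gadd45b were well above the limit. From 45 to 90 min Plau changed by -0.12 ± 0.15 and Gadd45b by -0.12 ± 0.18 (limma adjusted p = 0.99997 for both). Neither step passed, which does not show that the loss had stopped. Gadd45b averaged 8.93 at 0 min, 7.81 at 45 min and 7.69 at 90 min.

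Late losers included Trim13 (26.0%), Ccnf (32.1%), Nfkbia (38.4%), Plk2 (39.2%) and Pim1 (39.8%). Nfkbia had 9.87, 10.07 and 11.01 at 0 min, 8.90, 8.89 and 9.27 at 45 min, and 6.58, 6.73 and 7.49 at 90 min. The mean change of Nfkbia was -1.30 ± 0.49 up to 45 min (limma adjusted p = 0.997) and -2.08 ± 0.49 from 45 to 90 min (0.456). None of these late losers passed for either step alone, with adjusted p of 0.689 or higher up to 45 min and 0.302 or higher after it. Plk2 had 7.85, 7.64 and 7.78 at 0 min, 6.57, 6.41 and 6.08 at 45 min, and 4.41, 3.75 and 4.40 at 90 min. H1f5 lay between these patterns with 53.5% by 45 min.

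The same interval was measured in KO cells. Zfp36, the gene targeted in KO, still gave signal there, with 4.58, 5.97 and 4.42 at 90 min in KO, against 6.25, 6.75 and 6.81 at 0 min in KO, and fell by 1.61 ± 0.32 (adjusted p = 0.0475). Which part of the gene is deleted and which part the probes read were not stated in the labels or files, so this signal does not check the labels. Of the 125 genes, 121 also had a negative change in KO, with a median of -0.85, against 46.5% of all tested genes. In KO 23 genes (0.224%) fell in all, and 19 of them were among the 125. They included Dusp2 (-2.81), Socs3 (-2.55), Tnfaip3 (-2.49), Plk2 (-2.36), Clec2d (-2.13), H1f5 (-2.06) and Edn1 (-1.72). KO 90 min replicate 2 was higher than its group for many of these, as in Socs3, with 5.28, 7.25 and 5.71 at 90 min in KO, against 8.26, 8.42 and 9.22 at 0 min.

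The difference between the genotypes, the KO change minus the WT change, was positive for 122 of the 125 and for 56.4% of all tested genes. The 125 were chosen by a low WT change, which the difference subtracts, so that choice favours a positive sign and the count is a description only. Of all tested genes 2 (0.0195%) passed the threshold. At an unadjusted p under 0.05, the difference was positive in 177 of all genes and negative in 97. Tnf had 11.49, 11.85 and 11.40 at 90 min in KO, against 11.94, 12.04 and 12.10 at 0 min in KO, a change of -0.45 ± 0.18. The difference was 3.79 ± 0.26 (adjusted p = 3.76e-07). Cxcl2 changed by 0.11 ± 0.23 in KO, a difference of 2.09 ± 0.33 (adjusted p = 0.0375). The difference of Cxcl2 missed the threshold in 15 of 18 omissions of a single array. It also missed it with arrays centred on ribosomal protein genes (adjusted p = 0.235) or on housekeeping genes (0.9998), among other alternatives.

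Class medians in KO, set beside those in WT, were -0.84 and -1.36 for the histone genes, -0.18 and -1.24 for the reported TTP targets, -0.53 and -0.60 for the immediate early genes, and -0.12 and -0.51 for the cytokines and growth factors. The difference between these medians was not tested. For H1f5 the difference was 0.34 ± 0.46 and for Plk2 1.21 ± 0.61, neither past the threshold, which does not show that the genotypes decay alike. Cxcl1 had a difference of 2.64 ± 0.50, larger than that of Cxcl2, that did not pass (adjusted p = 0.19).

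**Figure D5:**
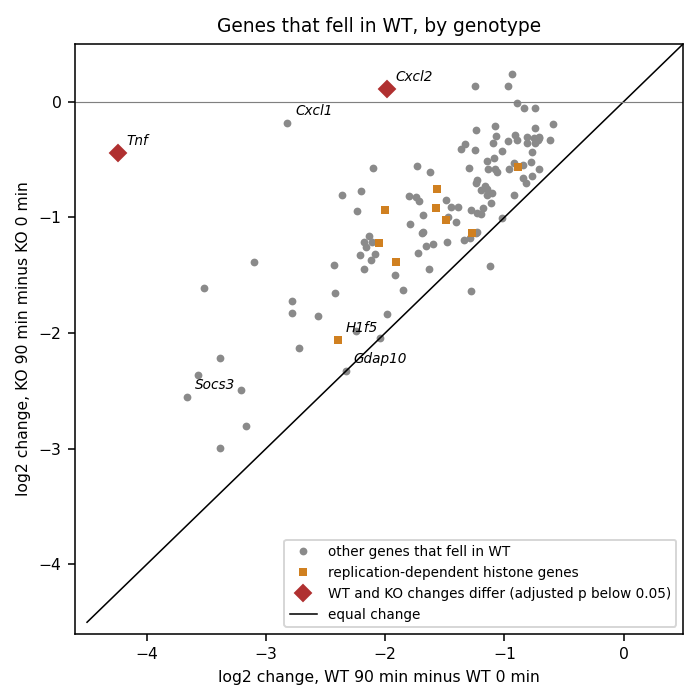
Change over 90 min in KO (y) against that in WT (x), log2 units, for the 125 genes that fell in WT. Orange squares are histone genes, red diamonds are Tnf and Cxcl2, whose changes differ past the threshold, and the line marks equal change. The genes were chosen by their WT change, which favours points above the line (122 of 125).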

How the data were processed

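The study measured total RNA on 18 Affymetrix Mouse Gene ST 1.0 arrays, 3 in each of 6 groups of genotype and time. The values deposited are linear intensities, judged by their range (array medians 7.41 to 8.19). RMA and Affymetrix Expression Console, with no version, are the tools the authors name, per the submitters' processing notes. Per the labels' protocols, cDNA was made by random priming, so RNA without a poly(A) tail is read too. The table holds no detection calls, and the number of arrays limits the precision.

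Computed here was the log2 of each intensity, with no offset. The table has 25138 rows: 21039 with 1 gene symbol, 1485 with several and 2614 with none. Only rows with 1 symbol were used, the brightest row per symbol, which gave 19454 genes. Symbols were updated through RefSeq (GRCm38.p6), and 84 rows kept an older one. A gene entered the test where its brightest group averaged at least the median over rows, 3.03 on the log2 scale. The fit of 6 group means to all 18 arrays used limma 3.58.1 (R 4.3.3), without a block, with Benjamini-Hochberg adjustment at 0.05 over all 10258 genes. Errors are SE from this fit.

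The members and the functional lists were chosen with earlier results of these data known, so lists are given by counts and medians, with no test of a list. Named genes were Zfp36, the 25 largest falls and 10 largest rises with separated groups, in each list up to 6 genes that passed (2 by size of change where none did), and the member of each list with the strongest signal at 0 min. Other genes are marked as named after their values were seen, or are members set beside the named ones. Provisional names (3 of the genes that fell) were counted only. Promoters were in the RefSeq table for 98 of the 125 genes that fell and 8360 of the 10258 tested.

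Replicate numbers are shared between groups. Deviations of same-numbered arrays at 90 and 0 min in WT correlated at 0.42, -0.29 and -0.02, so the numbers were not treated as pairs. These correlations do not decide whether the number series should be a block. The main fit has no block, so its SE include the spread between the number series, and fewer genes passed than with that block. On simulated data for WT 90 min against 0 min, with 10258 genes, the fit recovered 57.5% of genes changed by -1 and 100% of those changed by -2 and by -4, and 7.73% of its calls were false.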

Additional observations from a re-analysis of the deposited data

Results flagged for a closer look

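For 2 genes the change over 90 min differed between KO and WT by the test of the difference itself. Tnf differed by 3.79 ± 0.26 on the log2 scale (limma adjusted p = 3.76e-07), with a change of -0.45 in KO and -4.24 in WT. Its adjusted p stayed at or below 0.000337 in every alternative run. Cxcl2 differed by 2.09 ± 0.33 (adjusted p = 0.0375), with a change of 0.11 in KO and -1.98 in WT. For Cxcl2 the adjusted p ran from 0.00161 to 0.153 over omissions of a single array, and it passed only without WT 45 min replicate 3, WT 90 min replicate 3 or WT 90 min replicate 2. It also missed the threshold with no filter on dim rows (0.052), an offset of 16 (0.0532) and repeated quantile normalization (0.0553). Centring on ribosomal protein genes gave 0.235 and centring on housekeeping genes 0.9998. In each other alternative that tested the difference, Cxcl2 passed.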

How the results depend on the processing

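The main counts were 125 genes that fell and 1 that rose. The genes that fell numbered 64 with only the 6 WT arrays at 0 and 90 min, 291 with the number series as a block, 613 within replicates 1 and 2, 66 and 81 with arrays centred on ribosomal protein or housekeeping genes, and 516 with array weights. The genes that rose numbered 10 with the series block, 765 within replicates 1 and 2, 5 with no filter on dim rows, 0 with the stricter filter, 2 each with the mean over rows, limma-trend or centring on ribosomal protein genes, and 357 with array weights. Falls made up 44.5% of the calls within replicates 1 and 2 and 59.1% with array weights. Centring on ribosomal protein genes moved the median of all genes to 0.13. With the replicate block, 286 fell and 10 rose, and 125 of the 125 were among the 286; the numbers are not known to pair the arrays. Differences between genotypes with a smaller loss in KO numbered 2, and 5 within replicates 1 and 2, 8 with array weights, and 1 with no filter, an offset of 16, either centring or repeated quantile normalization; a larger loss in KO numbered 0, 2 within replicates 1 and 2 and 1 with array weights. Leaving out each array in turn gave 68 to 147 falls, 1 to 163 rises, 1 to 2 smaller losses and 0 to 1 larger losses in KO. Of the 53 named genes that fell, none changed direction under any alternative, 18 lost their call in at least 1 omission of an array, and 23 lost it under another alternative, 6 of them (Clk3, Gadd45b, Ier3, Plau, Zfp626, Zfp87) only there. With only the 6 WT arrays at 0 and 90 min, calls were lost for Aurka, Ccnf, Clk3, Il23a, Mylip, Pdgfb, Pvr, Socs1, Tbp, Zfp217, Zfp626, Zfp869 and Zfp87. An offset of 16 ended those of Dusp1, Ier3, Il23a, Irf1, Mylip, Pdgfb and Zfp217. Centring on ribosomal protein or housekeeping genes ended, in at least 1 of the 2 forms, those of Aurka, Cish, Clk3, Csrnp1, Gadd45b, Il23a, Irf1, Mcl1, Mylip, Plau, Pvr, Rgs1, Socs1, Tbp, Trim13, Zfp217, Zfp626 and Zfp869. The cause of these shifts was not tested. Signal over background limits the falls that end near the signal limit.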

Other observations

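Of the genes that fell, 67 stood on no list. The genes below were picked after their values were seen, and no test was made of them as groups. Clp1, an RNA kinase of 3′ end formation, had 4.12, 4.72 and 4.34 at 90 min, against 6.50, 6.43 and 5.81 at 0 min, a change of -1.85 ± 0.32 (limma adjusted p = 0.00428). Mepce, which caps the 7SK RNA, changed by -1.30, Tut1, a terminal uridylyltransferase, by -1.14, Cstf1, a cleavage stimulation factor, by -1.07, and Dbr1, the lariat debranching enzyme, by -1.06.

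Ppp1r10, a regulatory subunit of protein phosphatase 1, had 3.99, 3.95 and 4.53 at 90 min, against 6.42, 6.66 and 5.74 at 0 min, and changed by -2.12 ± 0.43 (adjusted p = 0.016), with 18.8% of the loss by 45 min. Ppp1r15a and Ppp1r15b, which direct the phosphatase to eIF2α, changed by -1.80 and -1.39. The prostaglandin E2 receptor genes Ptger4 and Ptger2 changed by -1.68 and -0.75, and the inhibitors of DNA binding Id3 and Id2 by -1.74 and -0.91. Ptger2 ended below the signal limit.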
